A study of Gallus gallus with 6 samples.

Results

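Of the 16317 genes in a table of RNA levels in the jejunal lining of hens, 9 were followed here because they carry interferon signals: the sensors and sensor regulators IFIH1, DHX58 and TRIM25, the receptor chains IFNAR1 and IFNAR2, the signalling protein STAT2 and the interferon regulatory factors IRF1, IRF7 and IRF8. They were chosen by gene symbol, all 9 had a row, and all 9 passed the filter on low counts that left 13060 genes for testing. The heat group was made up of SUT breeder hens aged 28 weeks and held at 36 °C for 6 h, and the control group of hens of the same breed and age at 23 °C. In each group 25 hens were kept and 12 sampled, and the RNA of 4 hens was mixed into each of 3 pools, so every value below is an average over 4 hens. The pools are called heat pools 1 to 3 and control pools 1 to 3, after the numbers in their titles.

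Interferons are secreted when a cell detects foreign nucleic acid. In birds, double-stranded RNA in the cytosol is sensed by the helicase IFIH1, also called MDA5, and chickens lack its relative RIG-I and the transcription factor IRF3, so that IRF7 takes a central place in switching on interferon genes. Secreted type I interferon binds a receptor made of IFNAR1 and IFNAR2. In mammals the signal passes through factors that include STAT2 and IRF9 to a set of antiviral target genes. Several of the sensors and factors named above are themselves encoded by such target genes. The intestinal lining keeps this system ready because it faces microbes without pause.

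The summed estimated counts per pool lay between 11513427 and 13805395, and the 9 genes had between 134 and 4972 counts per pool. Enterocyte markers were present in every pool, with a summed FPKM (fragments scaled for gene length and library size, used here to compare genes) of 14980 to 27910 in heat pools and 21270 to 31830 in control pools over 13 genes, as the label of jejunal mucosa implies. FABP1 alone gave 5498 to 14053 of that sum in heat pools and 11530 to 19655 in control pools. Log2 fold changes of heat over control were negative for 4 of these 13 genes, with a median of 0.04 over the list. FABP1 was at -0.57 and VIL1 at -0.55, while FABP2 was at 0.32. In bulk tissue, fewer cells of a type and less RNA per cell cannot be told apart. Pools are compared below in CPM, which are counts scaled by the library total times edgeR's TMM factor, and not by gene length. These factors lay between 0.936 (heat pool 3) and 1.031 (control pool 2). The heat pools did not respond alike: HSPH1, a chaperone of the HSP110 family, was at 84.1, 452 and 117 CPM in heat pools 1, 2 and 3. It was at 39.3, 43.9 and 39.3 CPM in control pools 1, 2 and 3. The first principal component placed heat pool 2 at 45.69, and the second placed heat pool 3 at -38.84, with every other pool between -27.12 and 13.51 on both.

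The estimated log2 fold changes of heat over control lay between -0.66 and 0.30 for the 9 genes. By edgeR's quasi-likelihood test, with p adjusted over all genes and a threshold of 0.05, 0 of 9 passed, where 0.0230% of all tested genes did. Negative values were found for 6 of 9 genes (IFIH1, DHX58, TRIM25, STAT2, IRF7 and IRF8) and positive values for IFNAR1, IFNAR2 and IRF1. The median was -0.18, beside -0.003 over all tested genes, of which 50.3% were negative. At an unadjusted p under 0.05 in edgeR, 2 of 9 were lower (TRIM25 and STAT2), where 9.02% of all tested genes were, and 0 of 9 were higher, where 8.87% of all were. DESeq2 called 0 of 9 at an adjusted p of 0.05, where it called 4.94% of all genes. In 1 gene, STAT2, every heat pool lay below every control pool, as in 12.9% of all genes, and in 1 gene, IFNAR1, every heat pool lay above, as in 11.6% of all genes. A count of 1 in 9 is near these background shares.

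**Figure D1:**
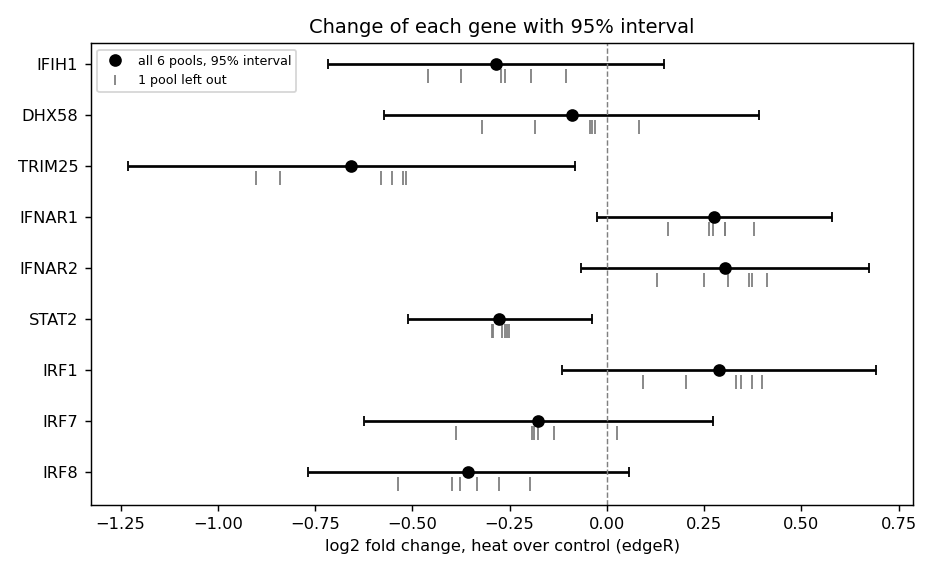
Log2 fold change of heat over control for each of the 9 genes (horizontal axis; black points, edgeR with all 6 pools; bars, 95% interval), with grey ticks for the value when 1 pool is left out. The intervals of TRIM25 and STAT2 lie below 0 before adjustment over all genes, those of the other 7 cover 0, and the ticks of STAT2 stay within -0.30 to -0.25.

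On the FPKM scale the 9 genes covered a wide range. IRF1 and IRF8 were the most abundant, at 183 ± 31.6 and 135 ± 27.2 FPKM in heat pools and 157 ± 17.9 and 181 ± 17.7 FPKM in control pools (mean ± SD, n = 3 pools here and below). IRF7 followed, at 35.6 ± 9.15 FPKM in heat pools and 42.0 ± 1.62 FPKM in control pools. IFIH1, IFNAR1, IFNAR2 and STAT2 formed a middle group, with means of 13.2 to 23.9 FPKM in heat pools and 15.7 to 23.2 FPKM in control pools. DHX58 and TRIM25 were the least abundant, at 6.28 ± 0.490 and 5.36 ± 1.23 FPKM in heat pools and 7.74 ± 0.997 and 8.87 ± 2.20 FPKM in control pools, and their pools overlapped with each other in both groups. In the middle group, IFIH1 overlapped with IFNAR1 in heat pools and with IFNAR2 in control pools, so its place in the order is not settled by these pools.

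**Figure D2:**
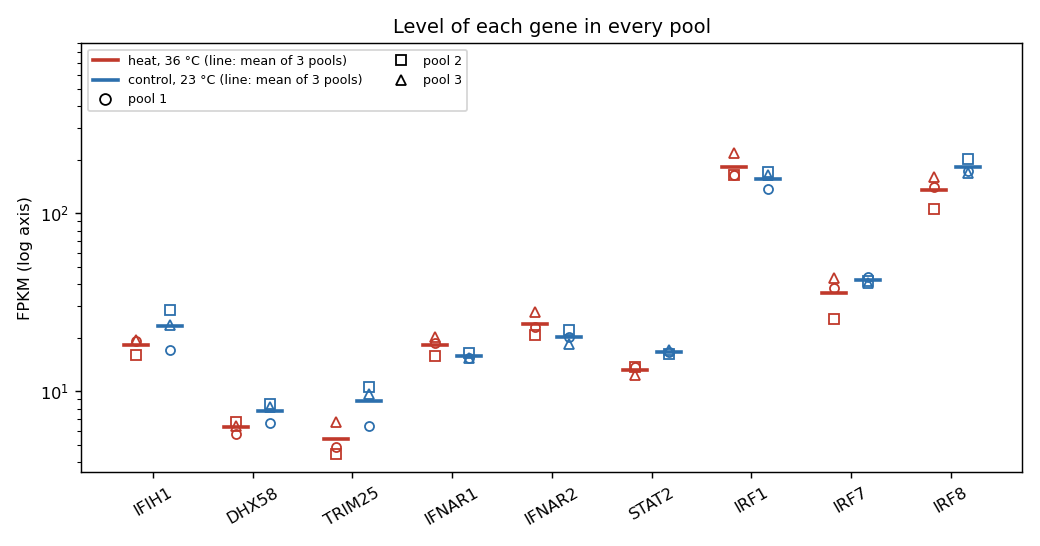
FPKM of each of the 9 genes (logarithmic vertical axis) in the 3 heat pools (red, left) and the 3 control pools (blue, right), with symbols for the pool number and lines for the mean. IRF1 and IRF8 stand above 100 FPKM in every pool, and STAT2 and IRF8 show groups that do not overlap on this scale.

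The sensor IFIH1 (gene 424185) was at 66.5, 58.5 and 74.7 CPM in heat pools 1, 2 and 3, against 60.3, 99.7 and 83.3 CPM in control pools 1, 2 and 3. Control pool 1 was as low as the heat pools, so the groups overlapped. Its log2 fold change was -0.29 (SE 0.19, 95% interval -0.72 to 0.15), with an edgeR adjusted p of 0.459. Its value depended on the control pools: it was -0.46 without control pool 1 and -0.10 without control pool 2.

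TRIM25 (gene 417401), a ubiquitin ligase that in mammals activates RIG-I, had the most negative estimate of the 9. It was at 11.4, 10.7 and 17.3 CPM in heat pools 1, 2 and 3, against 15.1, 24.4 and 22.7 CPM in control pools 1, 2 and 3. Heat pool 3 lay above control pool 1, and heat pools 1 and 2 lay below every control pool. An estimate of -0.66 on the log2 scale (SE 0.25, 95% interval -1.23 to -0.08) had an edgeR adjusted p of 0.227, an unadjusted p of 0.0296. The estimate stayed negative without each pool in turn, between -0.90 and -0.52.

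DHX58 (gene 100858653), also called LGP2, is a helicase related to IFIH1 that lacks the signalling domains and regulates sensing. It was at 15.7, 26.9 and 19.3 CPM in heat pools 1, 2 and 3, against 19.0, 23.6 and 23.4 CPM in control pools 1, 2 and 3, so heat pool 2 was the highest of all 6 and heat pool 1 the lowest. Heat over control gave a log2 fold change of -0.09 (SE 0.21, 95% interval -0.57 to 0.39; edgeR adjusted p = 0.860). In heat pool 2 the count and the FPKM of this gene disagreed. The authors list 338 counts there, while the FPKM of 6.73 implies 249 when the ratio of count to FPKM in the other pools is used, a 1.36-fold excess of counts. Such a gap of more than 0.3 on the log2 scale in any pool was found in 47 of 9681 genes compared (0.486%), and the other 8 genes of the set agreed within 0.0043 in every pool. With 249 counts in heat pool 2, an alternative chosen after seeing the data, the log2 fold change was -0.27 (edgeR adjusted p = 0.407), and without heat pool 2 it was -0.32 (edgeR adjusted p = 0.498).

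By listed count, the genes beside DHX58 were also high in heat pool 2. In the order of protein-coding genes in RefSeq's GRCg7b assembly, DHX58 is followed by KAT2A, a histone acetyltransferase, then by LOC772158, then by HSPB9, a small heat shock protein. HSPB9 had 309, 28389 and 454 counts in heat pools 1, 2 and 3, against 44, 22 and 87 in control pools 1, 2 and 3. LOC772158, which did not pass the filter on low counts, had 7, 485 and 17 counts in heat pools 1, 2 and 3, against 0, 1 and 1 in control pools 1, 2 and 3. KAT2A was at 16.2, 46.1 and 13.2 CPM in heat pools 1, 2 and 3, against 15.7, 17.6 and 16.2 CPM in control pools 1, 2 and 3. All 3 thus had their highest value in heat pool 2, as DHX58 did by its listed count. In FPKM these 3 were again highest there. DHX58 was not, at 6.73 FPKM in heat pool 2 against 8.43 and 8.20 in control pools 2 and 3. On the other side of DHX58, the adjacent gene, listed as ZNF862L, was at 1.36, 2.47 and 1.32 CPM in heat pools 1, 2 and 3 and at 1.36, 1.79 and 2.31 CPM in control pools 1, 2 and 3. NKIRAS2, 3 places away on that side, was at 65.85, 80.92 and 78.2 CPM in heat pools 1, 2 and 3. Its control pools 1, 2 and 3 were at 51.64, 57.98 and 56.28 CPM. Among the heat pools both were also highest in heat pool 2, as were 35.3% of all tested genes. ZNF862L rested on few counts, with 31 in heat pool 2 and 32 in control pool 3. Counts and FPKM in heat pool 2 were off by 0.0 for KAT2A and -0.001 for NKIRAS2 on the log2 scale. Neither the labels nor the table state whether reads were counted by strand, and the part of HSPB9 in the DHX58 count was not tested.

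**Figure D3:**
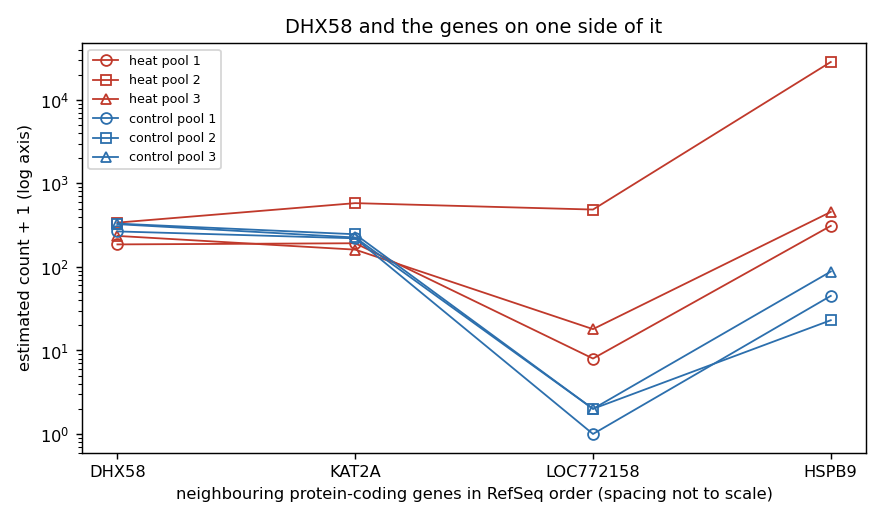
Estimated counts plus 1 (logarithmic vertical axis) of DHX58, KAT2A, LOC772158 and HSPB9, placed in their order along the chromosome (horizontal axis, not to scale), with 1 line per pool (red, heat; blue, control). The line of heat pool 2 is the highest at each of the 4 genes, with 338, 579, 485 and 28389 counts. In FPKM, which is not drawn, DHX58 is at 6.73 in heat pool 2 and at 8.43 in control pool 2.

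The receptor chains IFNAR1 (gene 395665) and IFNAR2 (gene 395664) both had positive estimates. IFNAR1 was at 50.2, 44.2 and 59.5 CPM in heat pools 1, 2 and 3, against 42.1, 43.7 and 41.3 CPM in control pools 1, 2 and 3. Every heat pool lay above every control pool, but heat pool 2 cleared control pool 2 by little, and on the FPKM scale the order turned, with 15.86 in heat pool 2 and 16.38 in control pool 2. For IFNAR1 the log2 fold change was 0.28 (SE 0.13, 95% interval -0.03 to 0.58; edgeR adjusted p = 0.315). IFNAR2 was at 34.3, 32.0 and 45.9 CPM in heat pools 1, 2 and 3, against 30.6, 32.5 and 27.7 CPM in control pools 1, 2 and 3, with overlap. Its log2 fold change was 0.30 (SE 0.16, 95% interval -0.07 to 0.67; edgeR adjusted p = 0.362). Heat pool 3 was the highest for both chains, and without it the log2 fold changes were 0.16 for IFNAR1 and 0.13 for IFNAR2.

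These chains lie in a run of 4 adjacent receptor genes in the RefSeq order, namely IFNAR2, IL10RB, IFNAR1 and IFNGR2. IL10RB encodes a chain shared by the receptors of interleukin 10 and interferon lambda, and was at 74.7, 75.8 and 114 CPM in heat pools 1, 2 and 3, against 72.4, 62.7 and 76.3 CPM in control pools 1, 2 and 3 (log2 fold change 0.33, SE 0.18, edgeR adjusted p = 0.384). IFNGR2, a chain of the interferon gamma receptor, was at 128, 133 and 162 CPM in heat pools 1, 2 and 3, against 144, 117 and 127 CPM in control pools 1, 2 and 3 (0.13, SE 0.14, edgeR adjusted p = 0.667). All 4 estimates were positive, none passed, and heat pool 3 was the highest pool of all 6 for each of the 4.

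STAT2 (gene 100858732), part of the transcription factor complex that type I interferon activates, varied less among heat pools than any of the other 8 genes. It was at 35.3, 36.8 and 35.01 CPM in heat pools 1, 2 and 3, against 43.5, 41.7 and 44.4 CPM in control pools 1, 2 and 3. The coefficient of variation was 2.63% in heat pools and 3.15% in control pools, and the groups did not overlap. The log2 fold change of -0.28 (SE 0.10, 95% interval -0.51 to -0.04) corresponds to 17.4% less, with an edgeR adjusted p of 0.220 and an unadjusted p of 0.0274, so it did not pass over all genes. Without each pool in turn it was between -0.30 and -0.25. The gene listed as IRF9 (gene 395243), which RefSeq also names IRF10, was at 20.1, 16.2 and 27.6 CPM in heat pools 1, 2 and 3, against 25.5, 29.9 and 27.6 CPM in control pools 1, 2 and 3, with overlap (-0.38, SE 0.20, edgeR adjusted p = 0.358).

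Among the interferon regulatory factors, IRF1 (gene 396384), which interferon gamma induces and which activates antiviral and antigen presentation genes, had a positive estimate. It was at 262, 273 and 385 CPM in heat pools 1, 2 and 3, against 221, 269 and 264 CPM in control pools 1, 2 and 3. Heat pool 3 stood above the rest, and heat pool 1 lay within the control range. The log2 fold change was 0.29 (SE 0.18, 95% interval -0.12 to 0.69; edgeR adjusted p = 0.423), and it was 0.09 without heat pool 3.

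IRF8 (gene 396385), a factor of myeloid and B cells, was at 250, 197 and 313 CPM in heat pools 1, 2 and 3, against 315, 356 and 302 CPM in control pools 1, 2 and 3. Heat pools 1 and 2 lay below every control pool and heat pool 3 lay among them. In FPKM, at 140, 106 and 160 in heat pools 1, 2 and 3 and at 174, 201 and 168 in control pools 1, 2 and 3, the groups did not overlap. The log2 fold change was -0.36 (SE 0.18, 95% interval -0.77 to 0.06; edgeR adjusted p = 0.338), with -0.54 (edgeR adjusted p = 0.105) without heat pool 3 and -0.20 without heat pool 2. The macrophage and dendritic cell list, in which no marker was at 0, had a summed FPKM of 195 to 228 in heat pools and 177 to 277 in control pools over 12 genes. The B cell list had 157, 76.1 and 79.7 summed FPKM in heat pools 1, 2 and 3 and, over the same genes, 222, 63.4 and 52.0 in control pools 1, 2 and 3 (9 genes). PAX5, which defines B cells, was at 21.7, 1.99 and 3.63 CPM in heat pools 1, 2 and 3 and at 45.4, 1.22 and 2.24 CPM in control pools 1, 2 and 3. The list was not uniform. Of its 9 genes, 6 had negative log2 fold changes, with PAX5 at -0.84, while BLNK (0.44), BLK (0.20) and LOC396098 (0.30) were positive. BLNK was at 103.9, 103.1 and 100.9 CPM in heat pools 1, 2 and 3. In control pools 1, 2 and 3 it was at 115.4, 61.64 and 50.43 CPM. The part of these cells in the IRF8 values was not tested.

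IRF7 (gene 396330), for which RefSeq also lists the name IRF3, was at 62.5, 43.6 and 78.2 CPM in heat pools 1, 2 and 3, against 73.2, 67.7 and 67.3 CPM in control pools 1, 2 and 3. The control pools were close together, while heat pool 2 was the lowest and heat pool 3 the highest of all 6. The coefficient of variation was 28.2% in heat pools and 4.69% in control pools. The log2 fold change was -0.18 (SE 0.20, 95% interval -0.62 to 0.27; edgeR adjusted p = 0.675), it was -0.39 without heat pool 3, and its sign turned, to 0.026, without heat pool 2.

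IRF1 and IRF8 differed in the order of their levels between the groups, a pair picked after its values were seen. The ratio of IRF1 to IRF8 in FPKM, which does not depend on the scaling between pools, was 1.17, 1.55 and 1.37 in heat pools 1, 2 and 3, against 0.784, 0.842 and 0.975 in control pools 1, 2 and 3. IRF1 was thus above IRF8 in every heat pool and below it in every control pool. The mean log2 count ratio was 0.65 higher in heat pools (0.28 ± 0.20 in heat pools and -0.37 ± 0.16 in control pools, n = 3 each). A two-sided exact permutation test gave a p of 0.1, the smallest that 3 against 3 pools can give. Any pair whose ratios do not overlap gives this p, so the choice of the pair fixed it and it adds no support. Of the 36 pairs among the 9 genes, 16 had count ratios that did not overlap between the groups (44.4%), where 23.1% of all pairs of tested genes did. Pairs that share a gene are not independent. Every pair that set IFNAR1, IFNAR2 or IRF1 against IFIH1, TRIM25, STAT2, IRF7 or IRF8 was among the 16, with IFNAR1, IFNAR2 or IRF1 higher relative to the other gene in heat pools, and the remaining pair was IFIH1 against TRIM25. Those sides were divided by the sign of their fold changes, which fixes the direction of the ratios. DHX58, also negative, was left out of that division, and its count ratios to IFNAR1, IFNAR2 and IRF1 overlapped between the groups. Those ratios use the listed count of DHX58 in heat pool 2, which disagrees with its FPKM. In FPKM, DHX58 over IFNAR1 was 0.308, 0.424 and 0.314 in heat pools 1, 2 and 3. It was 0.427, 0.515 and 0.536 in control pools 1, 2 and 3, without overlap. DHX58 over IRF1 did not overlap in FPKM either, and DHX58 over IFNAR2 was 0.326 in both heat pool 2 and control pool 1. The ratio of IFNAR1 to IRF1 overlapped between the groups, at 0.191, 0.162 and 0.155 in counts in heat pools 1, 2 and 3 and at 0.191, 0.163 and 0.156 in control pools 1, 2 and 3.

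Heat pool 3 was the highest heat pool for 7 of 9 genes, where it was for 33.5% of all tested genes, and heat pool 2 was the lowest for 6 of 9, where it was for 33.5% of all. Control pool 2 was the highest control pool for 7 of 9 genes, where it was for 32.6% of all, while the lowest was control pool 1 for 4 genes and control pool 3 for 4 genes. The heat pools spread more than the control pools for 7 of 9 genes by coefficient of variation, as for 65.9% of all tested genes, with IFIH1 and STAT2 as the exceptions. The median deviation of the 9 genes from the control mean was -0.26, -0.23 and -0.05 on the log2 CPM scale in heat pools 1, 2 and 3, beside -0.04, 0.11 and 0.04 in control pools 1, 2 and 3. Heat pools 1 and 2 thus lay below the control pools, and heat pool 3 was level with the lowest of them. By root mean square difference over the 6 pools, the profiles nearest to the mean profile of the 9 genes were those of NAA50, TMEM129, STXBP3, ARF1 and ASB8, at 0.039 to 0.045 on the log2 scale, where the median of all tested genes was 0.305. The 9 genes themselves lay 0.181 (IFIH1) to 0.417 (TRIM25) from that mean, so the mean profile stands for them only loosely.

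**Figure D4:**
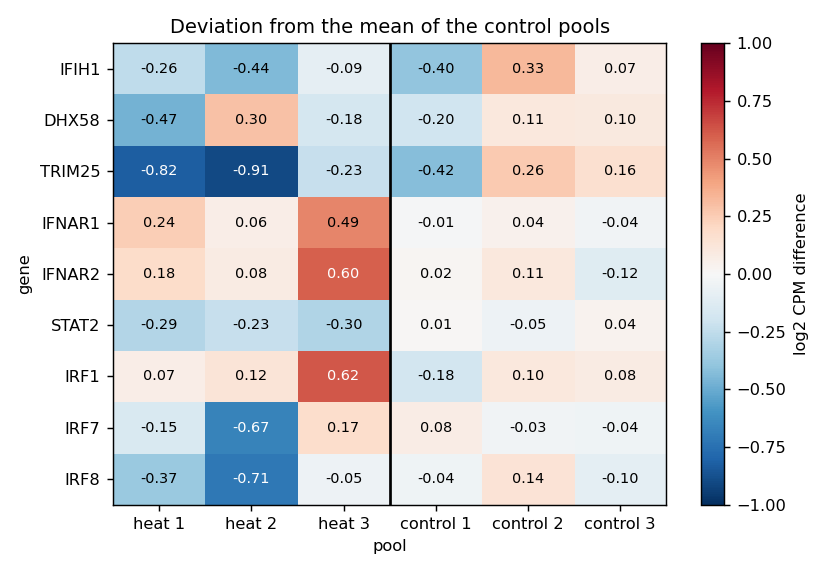
Difference of each gene (rows) in each pool (columns; heat pools left of the line, control pools right) from the mean of the control pools, in log2 CPM, with red for higher and blue for lower. TRIM25 and IRF8 are blue in heat pools 1 and 2, IFNAR1, IFNAR2 and IRF1 are reddest in heat pool 3, and STAT2 is similar in all heat pools.

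Other genes of the pathway were read from the same test in 6 lists, with 82 genes in the table and 79 tested, and 0 of these 79 passed in edgeR. At an unadjusted p below 0.05, edgeR had 17 of them lower, where 9.02% of all tested genes were, and 4 higher, where 8.87% of all were. DESeq2 called 7 lower and 1 higher after adjustment, where it called 4.94% of all genes in either direction. Of 6 interferon genes listed, 3 had a row and the other 3 were not analysed here. IFNG, which encodes interferon gamma, was at 0.849, 0.477 and 1.49 CPM in heat pools 1, 2 and 3, against 1.15, 1.86 and 0.866 CPM in control pools 1, 2 and 3 (-0.46, SE 0.49, edgeR adjusted p = 0.661). IFNA3 had at most 1.33 counts in any pool. IFNL3A had 0 counts in every pool, which allows up to 0.261 CPM by counting error alone at the lowest depth.

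Further sensing genes and adaptors showed no common direction, with 10 of 17 negative and a median of -0.08. The RNA helicase DDX3X, which assists signalling downstream of the sensors among other tasks, had the smallest p, at 5488, 4999 and 3459 CPM in heat pools 1, 2 and 3, against 1635, 1600 and 1556 CPM in control pools 1, 2 and 3. Its log2 fold change was 1.54 (SE 0.21) with an edgeR adjusted p of 0.0773. That did not pass, while DESeq2 called it higher, and it passed in edgeR without heat pool 3 (1.72, edgeR adjusted p = 0.0361). ZNFX1, a sensor of viral RNA in mammals, was at 88.8, 58.2 and 103 CPM in heat pools 1, 2 and 3, against 113, 159 and 157 CPM in control pools 1, 2 and 3 (-0.78, SE 0.22, edgeR adjusted p = 0.147), and DESeq2 called it lower. IRAK4, a kinase below Toll-like receptors, was at -0.52 (SE 0.16) and TRAF6, an adaptor ligase of the same route, at 0.29 (SE 0.10). MAVS, the adaptor of IFIH1, was at -0.08 (SE 0.16), and the kinase TBK1, which phosphorylates interferon regulatory factors, was at 0.02 (SE 0.12), both named as the direct partners of IFIH1 and IRF7 after their values were seen.

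Other receptor chains, kinases and STATs were positive in 8 of 11 cases, with a median of 0.13 and 0 at an unadjusted p under 0.05 in edgeR. STAT6, which interleukin 4 activates, was at 0.36 (SE 0.16) and JAK2, a kinase of the interferon gamma receptor, at 0.21 (SE 0.12). The other genes named as IRF or IRF partners were positive in 3 of 6 cases, with a median of 0.05. IRF2, which opposes IRF1 at shared sites, was at 157, 191 and 179 CPM in heat pools 1, 2 and 3, against 151, 149 and 148 CPM in control pools 1, 2 and 3, without overlap (0.23, SE 0.11, edgeR adjusted p = 0.319). IRF2BP2, a corepressor that binds IRF2, was at 0.36 (SE 0.16).

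Negative regulators were divided, with 6 of 15 negative and a median of 0.04. USP18, which shuts off the receptor at IFNAR2, was at 27.8, 16.95 and 35.8 CPM in heat pools 1, 2 and 3, against 63.8, 108 and 163 CPM in control pools 1, 2 and 3. Every heat pool lay below every control pool (-2.06, SE 0.37, edgeR adjusted p = 0.0773), and DESeq2 called it lower. NLRC5 was at 0.48 (SE 0.18), and the STAT inhibitors PIAS1 and PIAS2 were at 0.23 (SE 0.11) and 0.24 (SE 0.13).

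The target genes that interferon switches on were mostly negative. Of 29 tested, 26 were negative with a median of -0.42, and edgeR gave 13 lower (9.02% of all tested genes) and 1 higher (8.87% of all) before adjustment. DESeq2 called 5 lower (GBP7, OASL, IFI35, MX1 and IFIT5) and 0 higher, where it called 4.94% of all genes in either direction. GBP7, a guanylate-binding protein, was at 20.6, 10.4 and 15.4 CPM in heat pools 1, 2 and 3, against 42.9, 65.0 and 69.4 CPM in control pools 1, 2 and 3 (-1.93, SE 0.27, edgeR adjusted p = 0.0773). OASL, an antiviral protein of the oligoadenylate synthetase family, was at 72.7, 41.5 and 112 CPM in heat pools 1, 2 and 3, against 165, 228 and 271 CPM in control pools 1, 2 and 3 (-1.55, SE 0.34, edgeR adjusted p = 0.107). IFI35 was at -0.62 (SE 0.18) and CMPK2, a nucleotide kinase of mitochondria, at -1.46 (SE 0.42). The difference between this list and the 9 genes was not tested. The median deviation of the list was -0.48, -0.73 and -0.17 in heat pools 1, 2 and 3, beside -0.24, 0.09 and 0.15 in control pools 1, 2 and 3, so heat pool 3 was again the least different and control pool 1 the lowest control pool.

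**Figure D5:**
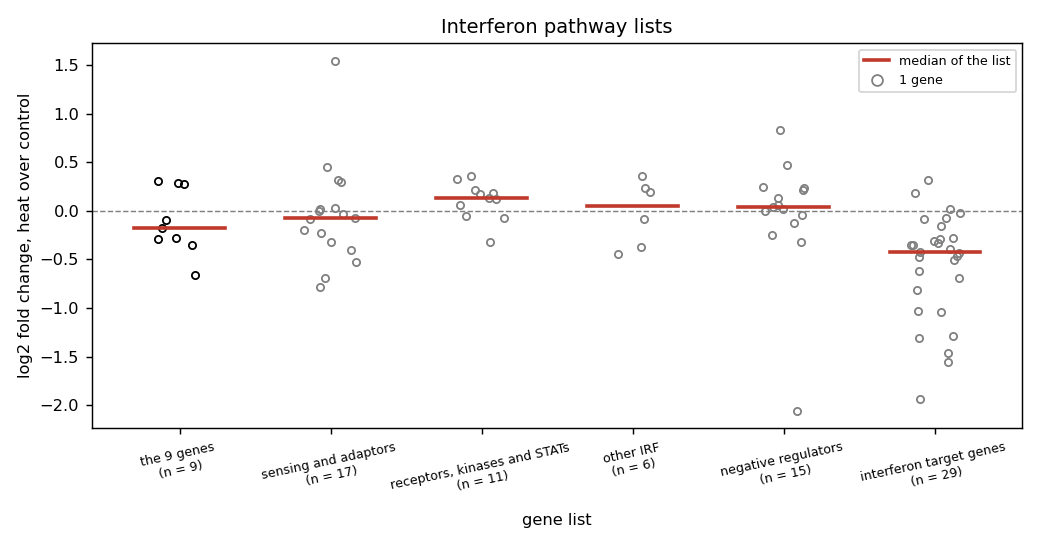
Log2 fold change of heat over control (vertical axis) for the 9 genes and for the tested genes of 5 further lists (horizontal axis; 1 point per gene, red line for the median). The target genes have a median of -0.42, against -0.18 for the 9 genes and 0.13 for the other receptors, kinases and STATs. The point of DDX3X stands at 1.54 and that of USP18 at -2.06.

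Markers of other cells were set beside these values. T and NK cell markers had a summed FPKM of 814 to 1381 in heat pools and 1006 to 1472 in control pools over 13 genes, lowest in heat pool 2. Of these 13 genes, 6 had negative log2 fold changes, with a median of 0.014 over the list. CD3D, at a mean of 446 FPKM in heat pools and 561 in control pools, was at -0.27. GZMA, at 365 and 324, was at 0.25. Plasma cell markers had a summed FPKM of 3531 to 4492 in heat pools and 2743 to 5918 in control pools over 5 genes. Fibroblast markers had 232 to 468 in heat pools and 270 to 400 in control pools over 7 genes. JCHAIN alone gave 3336 to 4278 of the plasma cell sum in heat pools and 2495 to 5709 in control pools. Log2 fold changes in that list were negative for MZB1 and POU2AF1 and positive for JCHAIN, PRDM1 and XBP1. Smooth muscle markers had 399 to 916 in heat pools and 409 to 802 in control pools over 7 genes, and red blood cell markers had 111 to 134 in heat pools and 147 to 161 in control pools over 4 genes. The red blood cell list was drawn up with ALAS2, but the gene matched is listed as ALAS1. Mean FPKM in heat and control pools was 59.9 and 63.6 for ALAS1 and 36.8 and 41.7 for HBA1. It was 19.9 and 40.6 for HBBA and 8.54 and 7.41 for HBM. No marker in these lists was at 0 in every pool, none passed in edgeR, and their part in the values of the 9 genes was not tested.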

How the data were processed

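RNA sequencing was done on 6 pools, grouped and numbered by their titles. The submitters' processing notes name DESeq2, HTSeq 0.6.1, HISAT2 2.0.1 and cutadapt 1.9.1 and the build GRCg6a. The authors deposited 1 table with estimated counts per gene, of which 13.05% to 13.65% per pool are not whole within 0.001, and with FPKM values per the file headers. The labels do not state the gene length or library total behind the FPKM.

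Estimated counts were rounded and tested across all genes with edgeR 4.0.16 in R 4.3.3 (glmQLFit and glmQLFTest, TMM scaling, filterByExpr with a minimum count of 10 and total of 15, Benjamini-Hochberg adjustment, two-sided, threshold 0.05). The SE was taken from the F statistic (size of the log2 fold change over root F), with a 95% interval from edgeR's degrees of freedom. CPM uses TMM scaled totals. DESeq2 1.42.0 and limma 3.58.1 gave alternatives. On counts simulated for 3 and 3 pools over 12943 genes, edgeR recovered 62% of 2-fold and 94% of 4-fold changes with 13 false calls, and DESeq2 71% and 94% with 47 false calls. The simulation drew each gene independently, without shifts shared by many genes of a pool. The real heat pools did not respond alike, so these rates may not hold for them.

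The 9 genes and the lists were chosen with earlier results of these data known. Named were the 9 genes, up to 4 genes per list with the smallest p, and the 5 nearest profiles; genes beyond that rule are named where said or as neighbours, and some genes under it are not reported here. Gene order comes from RefSeq's GRCg7b, another build, so no coordinates are given. No sequences were used here, and promoter motifs were not searched. Replicates are pools of separate hens, and within a group the pools differed by more than counting noise allows (chi-square over its degrees of freedom, at least 22.2). Python 3.11.15, pandas 2.3.3 and matplotlib 3.10.9 made the tables and plots.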

Additional observations from a re-analysis of the deposited data

How the results depend on the processing

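With other tools, scalings, filters and units, and with single pools left out (16 settings), 0 of the 9 genes passed an adjusted p of 0.05. Of 144 values of single genes under these settings, 142 kept their direction. The exceptions were DHX58, which lay between -0.321 and 0.082 with 1 pool left out and was positive without heat pool 1, and IRF7, which lay between -0.388 and 0.026 and was positive without heat pool 2. The count over all genes was 3 in edgeR. It was 645 by DESeq2, 5 by voom with library weights, 5 once a trend with gene length was taken out, 1 by limma-trend on log2(FPKM + 0.1) and 2 by limma-trend on log2(FPKM + 1). With 1 pool left out it was between 0 and 7, at 0 when a control pool or heat pool 1 was left out and at 7 without heat pool 3. With the pool number as a replicate block it was 20, and 0 of the 9 genes passed. Deviations of same-numbered pools correlated at 0.257, 0.089 and 0.017, and those of differently numbered pools at -0.239 to 0.185. These values do not settle whether the numbers pair the pools. The labels do not state that the numbers mark shared hens or days, so the main test used no pairing. The cause of these differences was not tested. With 3 pools a group, the 95% intervals of 7 of the 9 genes cover 0 and reach from -0.77 to 0.69 on the log2 scale, and those of TRIM25 and STAT2 lie below 0 before adjustment.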
